A study of Mus musculus with 2 samples.

Results

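The genes described here are 34 genes of SREBP control, sterol synthesis and fatty acid synthesis, chosen by name from the 22060 genes of the count table. All 34 were found by their Ensembl identifier, and all 34 passed the filter of at least 20 counts summed over both libraries. The study sequenced RNA from unstimulated bone marrow-derived macrophages of C57BL/6 mice aged 8 weeks, grown for 7 days in M-CSF, the growth factor that turns marrow progenitors into macrophages. One library came from wild-type cells (WT) and 1 from cells of mice in which threonine 403 of STAT2 is replaced by alanine (T403A). Type I interferon activates STAT2, a transcription factor that switches on interferon-stimulated genes. The labels give no treatment for either library, and they do not say how many animals each holds.

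SREBPs are transcription factors made as membrane proteins of the endoplasmic reticulum. When sterols run low, SCAP carries them to the Golgi, where proteases release the active part. When sterols are plentiful, INSIG proteins hold SCAP back. The product of Srebf2 mainly drives cholesterol synthesis, and that of Srebf1 mainly drives fatty acid synthesis. In macrophages both pathways supply membrane lipid, and interferons are known to alter them, in part through oxysterols that bind INSIG.

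The fatty acid genes were mostly higher in the T403A library, and the sterol genes went both ways. Of 10 fatty acid genes, 9 had a log2 ratio of T403A over WT above 0, and their median was 0.36, a 1.29-fold difference. Among the 19 sterol genes 9 were above 0 and 10 below, with a median of 0.00. The median of all 11199 measured genes was 0.01. The sterol median exceeded 48.5% of measured genes and the fatty acid median 76.7%. Fasn, Lss, Dhcr7, Acat2 and Scd1 were at least 1.5-fold higher in T403A, and Hsd17b7 and Sqle at least 1.5-fold lower.

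These are ratios of CPM, read counts scaled to the size of the library with the TMM method, each with an exact 95% interval that covers counting error only. With a single library in each group nothing was replicated, no difference could be checked against replicates, and no p-value is given. Every statement compares 2 libraries and not the genotypes. A gene was called when it differed by at least 1.5-fold and its interval excluded 1. By that rule 5 of 34 members were called higher (14.7%) and 2 lower (5.88%), while 13.5% of all measured genes were called higher and 10.8% lower. Of the 30 members that averaged 10 CPM or more over both libraries, 4 were called higher (13.3%) and 2 lower (6.67%), against 8.30% and 10.6% of the 8182 measured genes at that level. On 34 genes these shares rest on few calls, and nothing particular to the members is read from them.

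**Figure D1:**
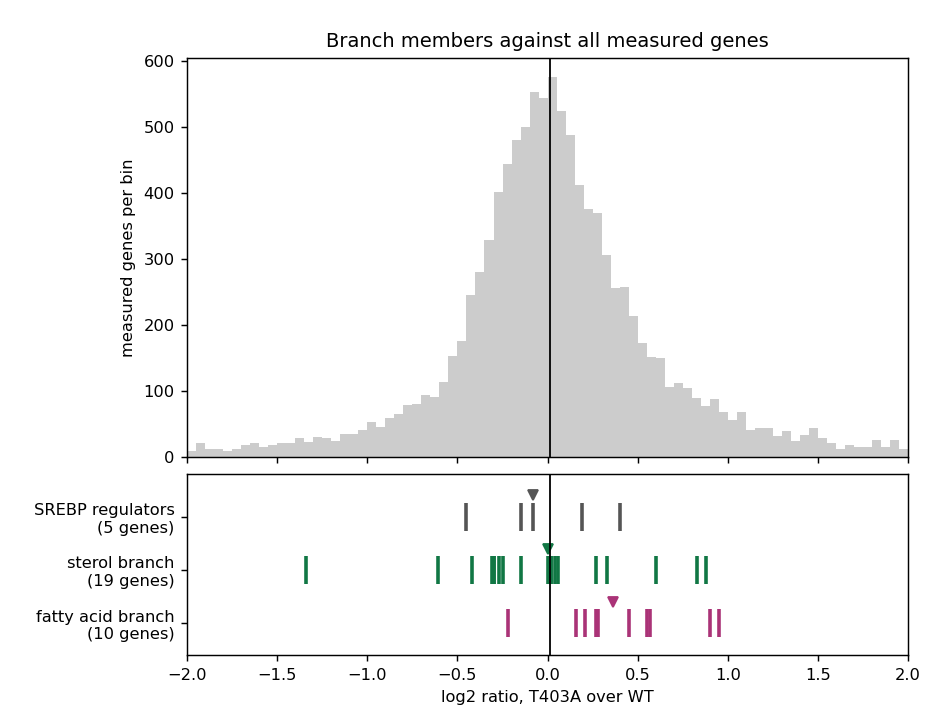
Log2 ratio of T403A over WT for all measured genes (top, histogram; 503 genes beyond a log2 ratio of 2 in either direction are not drawn) and for each member (bottom, 1 tick per gene, with a triangle at each group's median). The vertical line is the median of all measured genes, 0.01. The fatty acid ticks lie mostly to its right, with a median of 0.36, and the sterol ticks lie on both sides.

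The libraries held 16033032 counts (WT) and 18658381 counts (T403A). Stat2, the altered gene, was at 376 CPM in WT against 84.4 CPM in T403A, and a substitution of this kind need not change a read count, so the value does not check the labels. All 10 macrophage markers examined were measured, and Csf1r, the M-CSF receptor, was at 7146 and 5503 CPM. Of these markers Mrc1 was called higher in T403A, and Adgre1, Itgam and Cd14 lower. All 6 proliferation markers were called higher in T403A (Mki67, Top2a, Ccnb1, Cdk1, Birc5 and Ube2c), with a summed level of 76.0 CPM in WT and 416 in T403A. Their part in the differences of lipid genes was not tested. Of the 6 adipocyte markers Cidec, Lep and Cfd had no counts in either library, and the list summed to 0.133 and 0.351 CPM. In the monocyte list 2 of 5 genes were lower, with summed levels of 136 and 63.3 CPM. Neutrophil markers summed to 8.73 and 11.3 CPM, dendritic cell markers to 2.40 and 1.30 CPM, and stromal markers to 2.27 and 2.61 CPM. In such bulk samples fewer cells of a type and less RNA per cell cannot be told apart.

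The genes that control SREBP were all within 1.5-fold. Srebf2 was the most abundant member, with 6053 counts in WT and 5898 in T403A. It was at 403 CPM in WT against 296 CPM in T403A, 1.36-fold lower (interval 1.32 to 1.41). Srebf1 was at 118 and 112 CPM, with an interval of the T403A over WT ratio from 0.889 to 1.01 (log2 ratio -0.08, and 0.11 with library size scaling). Per length, Srebf1 stood at 20.9 RPKM (CPM per kilobase of deposited gene length) in WT and 19.8 in T403A, and Srebf2 at 56.2 and 41.2. The ratio of Srebf1 to Srebf2, which no scaling can alter, went from 0.373 in WT to 0.481 in T403A, a 1.29-fold difference (1.20 to 1.39).

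Scap, the escort that carries SREBPs to the Golgi, was at 37.1 CPM in WT against 49.1 CPM in T403A, 1.32-fold higher (1.19 to 1.47). The retention factors differed little. Insig1, itself an SREBP target, was at 168 and 151 CPM, and Insig2 at 24.0 and 27.4 CPM, where the interval of the ratio ran from 0.997 to 1.31. The sign of the Insig1 difference turned with library size scaling (log2 ratio -0.15, then 0.04). Per length Insig1 was the more abundant of the pair in both libraries, at 54.3 and 48.8 RPKM against 6.91 and 7.88 for Insig2. A limit for Scap is that 5830462I19Rik, an annotated transcript on the opposite strand, overlaps its exons and has no row in the count table.

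**Figure D2:**
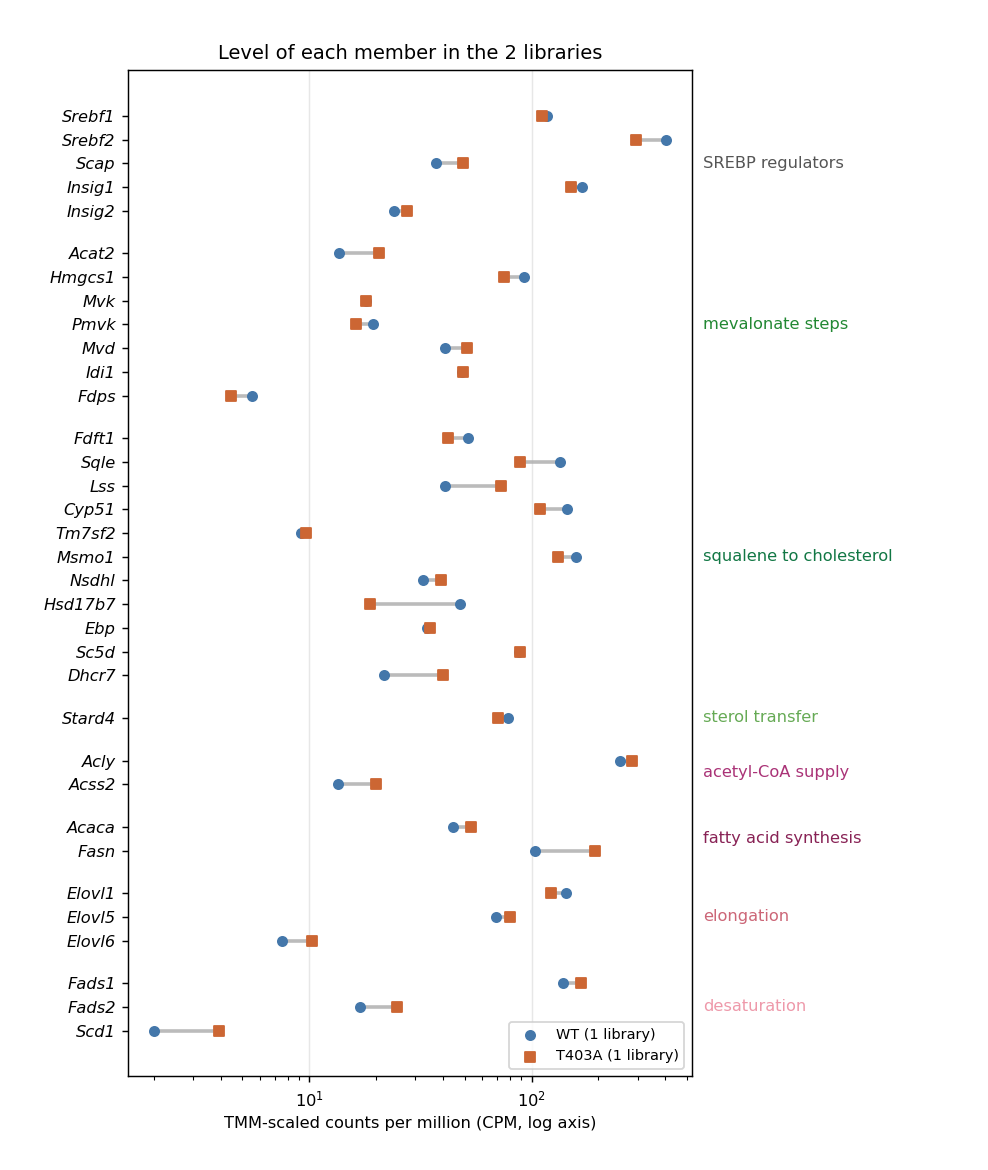
TMM-scaled CPM (log axis) of each of the 34 members in the WT library (circles) and the T403A library (squares), grouped by role; a grey line joins both values of a gene. In WT Srebf2 is the highest, at 403 CPM, and Scd1 the lowest. Hsd17b7, Scd1, Fasn, Dhcr7 and Lss show long lines.

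Promoter windows were available from RefSeq (GRCm38.p6) for 28 members and were searched for letters of 4 motifs on both strands. Each window holds 250 bases before a start site and 50 after it. The sterol regulatory element, which SREBPs bind, was searched as TCACNCCAC. The letters CACGTG were used for the E-box, which SREBPs also bind. The CCAAT box was searched by the letters of its name, and GGGCGG stood for the GC box. CCAAT letters, bound by NF-Y, a partner of SREBPs, were present for 14 of 15 sterol genes (93.3%), 5 of 8 fatty acid genes (62.5%) and 4 of 5 regulators. Of 8938 measured genes with a window 43.4% held them. GC box letters, bound by Sp1, were found for 14 of 15 sterol genes, 4 of 8 fatty acid genes and 69.1% of measured genes. E-box letters were found for 3 of 15 sterol genes and 1 of 8 fatty acid genes, and for 12.1% of measured genes. The sterol regulatory element letters were found for 1 member, Hmgcs1, and for 1.39% of measured genes. Counted per window, since some genes have several, CCAAT letters were in 14 of 18 sterol windows (77.8%) and in 37.4% of all 32851 windows. A match in these windows is a description and not a site, and absent letters say nothing about binding.

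**Figure D3:**
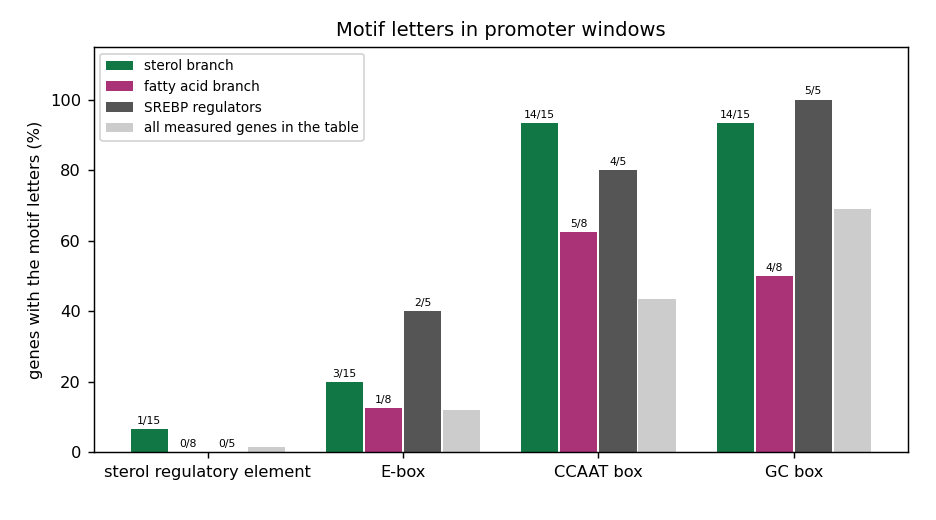
Share of genes (%, vertical axis) whose promoter windows hold the letters of each motif (horizontal axis), for the sterol branch, the fatty acid branch, the SREBP regulators and all 8938 measured genes with a window; the fraction above a bar counts genes. CCAAT letters occur for 14 of 15 sterol genes and for 43.4% of measured genes.

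Of the mevalonate steps, which build isoprenoid units from acetyl-CoA, 1 of 7 genes was called higher and none lower, beside 13.5% and 10.8% of all measured genes. Their summed level was 239 CPM in WT against 235 CPM in T403A. Acat2, the cytosolic thiolase that joins acetyl-CoA units (chromosome 17, 12942890 to 12960747, minus strand, GRCm38), had 204 counts in WT and 411 in T403A. It was at 13.6 and 20.6 CPM, 1.52-fold higher (1.28 to 1.80), a value just past the 1.5-fold line. A limit is that 39.1% of its 50-base transcript stretches also occur in other genes, mainly Acat3 and Tcp1. Acat3 had 3 counts in WT and 5 in T403A, and Tcp1 had 2152 and 2582, more than Acat2 itself. Unlike Acat2, Hmgcs1, the synthase of the next step, was lower in T403A, from 92.7 CPM to 75.4 CPM, a T403A over WT ratio of 0.814 (0.756 to 0.876). For Hmgcs1 11.6% of the 50-base stretches also occur in other genes. Most are shared with Gm48342, an antisense gene that overlaps its exons and has no row in the count table. The Hmgcs1 promoter is shown because it holds the only sterol regulatory element letters among the 28 members with a window. These letters start 137 bases before the start site (TCACCCCAC). The promoter lies at chr13:119690101-119690350 on the plus strand. In this and the later promoters the 250 bases before the RefSeq start are given, and capitals mark letters of any of the 4 motifs on either strand, which run together where motifs overlap.
Hmgcs1: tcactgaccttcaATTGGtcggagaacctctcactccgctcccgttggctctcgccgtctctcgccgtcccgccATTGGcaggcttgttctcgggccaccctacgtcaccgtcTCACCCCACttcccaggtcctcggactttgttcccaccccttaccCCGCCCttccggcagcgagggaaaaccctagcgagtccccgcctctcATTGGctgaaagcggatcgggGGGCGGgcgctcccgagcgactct

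The kinases and the decarboxylase that follow showed small differences. Mvk, mevalonate kinase, was at 18.0 CPM in both libraries (ratio 0.998, 0.849 to 1.17). Pmvk, the kinase after it, was at 19.3 and 16.2 CPM (ratio 0.841, 0.715 to 0.988). Mvd, the decarboxylase, was at 40.9 CPM in WT against 51.4 CPM in T403A, 1.25-fold higher (1.13 to 1.39). Idi1, the isomerase, was at 48.6 and 49.1 CPM (ratio 1.01). Fdps, which makes farnesyl diphosphate, had only 83 and 89 counts, 5.53 and 4.46 CPM, and its interval ran from 0.591 to 1.10. For Idi1 and Fdps 25.3% and 26.2% of the 50-base stretches are shared with other genes, pseudogenes among them, so their counts rest on the rule for reads with several matches, which is not given in the sources used here.

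The steps from squalene to cholesterol held both the lowest member and several of the highest. Of 11 genes 2 were called higher and 2 lower, and 7 were not called, beside 13.5% higher and 10.8% lower over all measured genes. Hsd17b7, a ketosteroid reductase of the demethylation steps (chromosome 1, 169949535 to 169969241, minus strand), had 715 counts in WT and 375 in T403A. It was at 47.7 CPM and 18.8 CPM, 2.53-fold lower (2.23 to 2.88), and only 4.32% of measured genes had a lower ratio. Sqle, squalene epoxidase and a rate-limiting enzyme of the pathway (chromosome 15, 59315077 to 59331192, plus strand), had 2026 and 1770 counts. At 135 and 88.8 CPM it was 1.52-fold lower (1.43 to 1.62), and with library size scaling its log2 ratio was -0.41, inside the 1.5-fold line.

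Lss and Dhcr7 went the opposite way. Lss, which closes squalene epoxide into lanosterol (chromosome 10, 76531588 to 76557138, plus strand), had 611 and 1447 counts, or 40.7 CPM in WT against 72.6 CPM in T403A. It was 1.78-fold higher (1.62 to 1.96), although it acts on the product of Sqle. The antisense gene 4930483K19Rik, which has no row in the count table, overlaps its exons. Dhcr7, the reductase of the last step to cholesterol (chromosome 7, 143823145 to 143848410, plus strand), had 325 and 795 counts, or 21.7 and 39.9 CPM, and was 1.84-fold higher (1.62 to 2.10). Pairs picked after these values were seen show the contrast free of scaling. The ratio of Dhcr7 to Hsd17b7 per length was 0.399 in WT and 1.86 in T403A, a 4.66-fold difference (3.90 to 5.58), and that of Lss to Sqle was 0.155 and 0.420.

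The promoters of Lss, Dhcr7 and Hsd17b7 are shown because these are the called genes of the squalene to cholesterol steps that have a window. Sqle, also called, has none. Lss is at chr10:76531355-76531604 (plus strand) and Hsd17b7 at chr1:169969206-169969455 (minus strand). Dhcr7 has 3 windows, and the one with the most motif letters is given, at chr7:143829964-143830213 (plus strand).
Lss: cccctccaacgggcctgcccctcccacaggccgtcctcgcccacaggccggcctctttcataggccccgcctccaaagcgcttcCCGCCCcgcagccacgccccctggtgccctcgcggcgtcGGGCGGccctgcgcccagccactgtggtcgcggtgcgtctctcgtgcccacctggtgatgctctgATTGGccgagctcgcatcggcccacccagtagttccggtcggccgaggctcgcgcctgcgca
Dhcr7: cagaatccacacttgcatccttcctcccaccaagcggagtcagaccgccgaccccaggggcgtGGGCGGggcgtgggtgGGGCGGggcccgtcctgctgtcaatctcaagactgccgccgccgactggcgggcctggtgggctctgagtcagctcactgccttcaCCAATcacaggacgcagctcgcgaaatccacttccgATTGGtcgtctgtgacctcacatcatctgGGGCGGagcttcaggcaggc
Hsd17b7: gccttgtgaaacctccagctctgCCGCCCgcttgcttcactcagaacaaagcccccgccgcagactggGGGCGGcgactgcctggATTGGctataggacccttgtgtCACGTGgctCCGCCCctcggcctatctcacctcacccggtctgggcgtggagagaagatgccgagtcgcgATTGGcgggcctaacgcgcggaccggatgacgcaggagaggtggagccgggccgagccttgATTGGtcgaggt
The CCAAT and GC box letters occur in all 3 printed runs. The Dhcr7 window was picked for its motif letters, and its other windows hold no CCAAT letters. Across the branch 14 of 15 sterol genes with a window hold each of these motifs, so nothing about direction is read from them. CACGTG occurs in the Hsd17b7 run and in another Dhcr7 window, not printed here, and not in the Lss window.

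The other genes of these steps were within 1.5-fold. Cyp51, the lanosterol demethylase, was at 145 CPM in WT against 109 CPM in T403A (ratio 0.747, 0.704 to 0.793). Its exons overlap those of Akap9 on the opposite strand, which was at 101 and 109 CPM. Msmo1, the methylsterol oxidase after Cyp51, was at 158 and 131 CPM (0.830, 0.785 to 0.878). Fdft1, squalene synthase, was at 51.7 and 42.0 CPM (0.811, 0.735 to 0.896), and the abundant Ctsb (11139 and 10826 CPM) overlaps its exons from the opposite strand. Nsdhl, the dehydrogenase that works with Msmo1, was at 32.5 and 39.1 CPM, 1.20-fold higher (1.07 to 1.35).

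Ebp, the sterol isomerase, was at 34.0 and 35.1 CPM, and Sc5d, the desaturase after it, at 87.4 and 88.5 CPM, both with intervals that include 1. Tm7sf2, a sterol reductase, had 138 and 192 counts (9.20 and 9.63 CPM), and its exons overlap those of Vps51 on the same strand. Stard4, which moves cholesterol between membranes, was at 78.6 and 70.8 CPM (ratio 0.900, 0.833 to 0.974), and its log2 ratio turned from -0.15 to 0.04 with library size scaling.

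**Figure D4:**
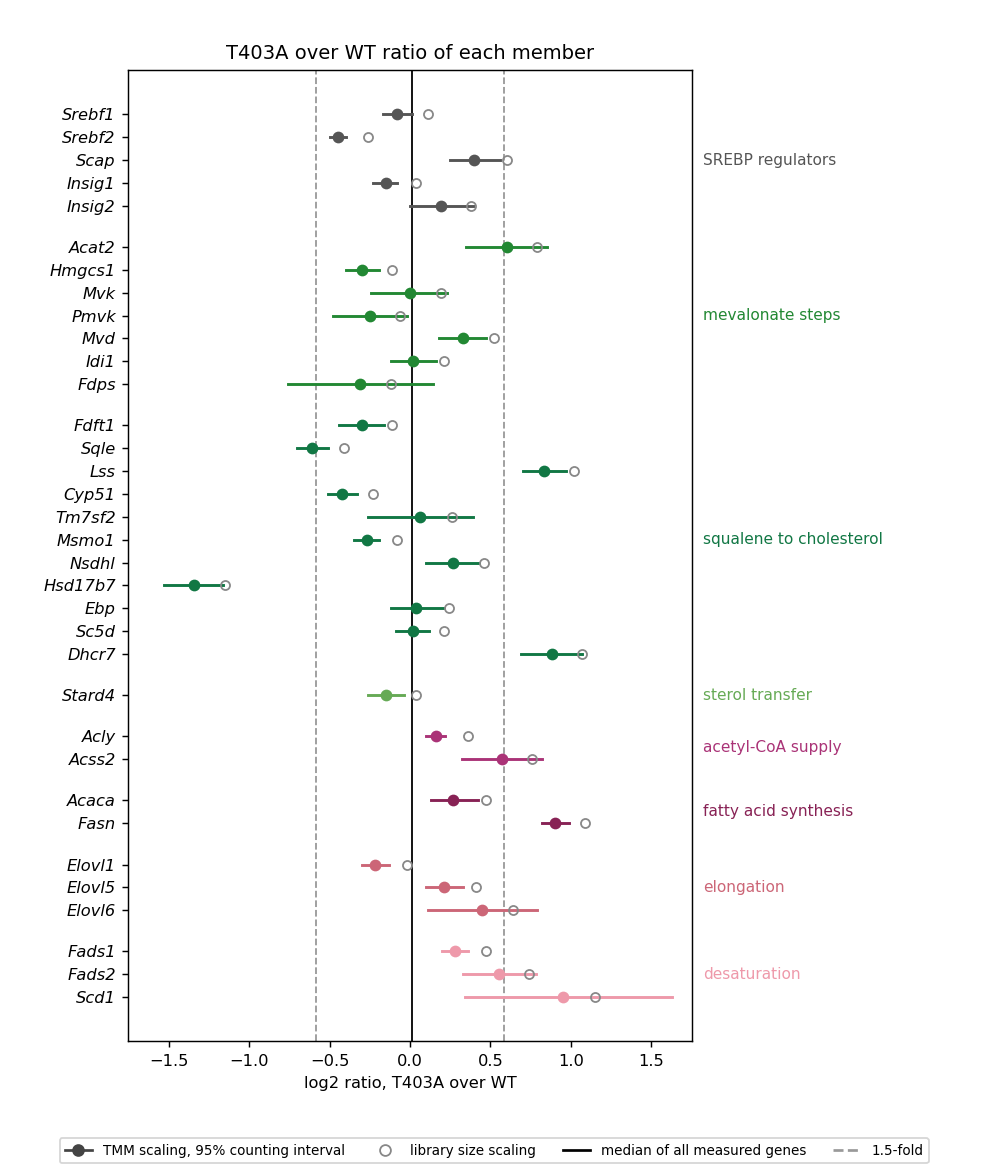
Log2 ratio of T403A over WT (horizontal axis) for each of the 34 members, with TMM scaling (filled points, bars are 95% counting intervals) and library size scaling (open points). Dashed lines are 1.5-fold and the solid line is the median of all measured genes; Hsd17b7 lies farthest left at -1.34 and Scd1 farthest right at 0.95, and library size scaling moves all points right by 0.19.

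In the fatty acid branch 2 of 10 genes were called higher and none lower, against 13.5% and 10.8% of all measured genes. All but Elovl1 had ratios above 1, as did 5727 of the 11199 measured genes. Fasn, the synthase that builds palmitate (chromosome 11, 120805846 to 120824547, minus strand), was the more abundant of the 2 called genes, with 1555 counts in WT and 3860 in T403A. It was at 104 CPM and 194 CPM, 1.87-fold higher (1.76 to 1.98), and 91.2% of measured genes had a lower ratio. Per length it went from 9.47 to 17.7 RPKM. None of its 50-base transcript stretches occurs in another annotated gene. The Fasn promoter is shown as that of the called fatty acid gene with the most reads. It lies at chr11:120824548-120824797 on the minus strand and holds CCAAT letters starting 90, 62 and 59 bases before the start, of which the last pair overlap.
Fasn: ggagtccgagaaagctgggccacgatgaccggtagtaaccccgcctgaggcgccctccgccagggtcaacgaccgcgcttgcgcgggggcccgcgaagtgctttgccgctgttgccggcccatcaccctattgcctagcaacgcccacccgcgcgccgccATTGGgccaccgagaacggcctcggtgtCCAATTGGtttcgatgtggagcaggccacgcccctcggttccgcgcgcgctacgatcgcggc

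Acaca, the carboxylase that supplies malonyl-CoA to Fasn, differed less, at 44.1 CPM in WT against 53.4 CPM in T403A (1.21-fold higher, 1.10 to 1.33). A processed pseudogene, Gm5182, shares most of the 30.4% of its 50-base stretches that are not unique. Of the enzymes that supply acetyl-CoA to both branches, Acly, which cleaves citrate, was at 251 and 282 CPM (1.12-fold higher, 1.08 to 1.17). Acss2, which activates acetate, was at 13.4 and 19.9 CPM, 1.49-fold higher (1.25 to 1.77), just short of the 1.5-fold line. Its exons overlap those of Ggt7 and Gss on the opposite strand.

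Of the 3 desaturases 1 was called higher and none lower, beside 13.5% and 10.8% of all measured genes. Scd1, which makes oleate (chromosome 19, 44394455 to 44407879, minus strand), was the least abundant member, with 30 counts in WT and 78 in T403A. It stood at 3.91 CPM in T403A and was 1.96-fold higher than in WT, with a wide interval of 1.27 to 3.09. Its paralog Scd2 carried far more reads, at 93.5 and 103 CPM (1.11-fold higher, 1.03 to 1.18). Per length Scd2 stood at 17.2 and 19.0 RPKM, against 0.414 and 0.809 for Scd1. Fads1, a desaturase of polyunsaturated fatty acids, was at 138 and 167 CPM (1.21-fold higher, 1.15 to 1.28). Fads2, which acts before it, was at 16.9 and 24.8 CPM, 1.47-fold higher (1.26 to 1.71).

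Among the elongases Elovl6, which extends palmitate, had 113 and 205 counts, 7.53 and 10.3 CPM, and was 1.36-fold higher (1.08 to 1.73). Elovl5, which extends polyunsaturated chains, was at 69.1 and 80.2 CPM (1.16-fold higher, 1.07 to 1.26). Elovl1, which extends very long chains, was lower, at 143 and 123 CPM (ratio 0.860, 0.812 to 0.912). Its exons overlap on the opposite strand those of the mitotic gene Cdc20, which was at 2.33 and 20.7 CPM.

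Set against each other, the branches differed by a log2 of -0.37 (sterol median minus fatty acid median). The branches overlapped: 3 of 19 sterol genes lay above the fatty acid median, while 76.7% of measured genes lay below it. Below Elovl1, the lowest fatty acid gene, lay 8 of 19 sterol genes and 29.1% of measured genes. That cutoff rests on a single gene. Summed counts gave a contrast that does not depend on scaling. The fatty acid genes had 11830 counts for 16207 sterol counts in WT, a ratio of 0.730. In T403A they had 19101 for 19539, a ratio of 0.978, which is 1.34-fold higher (1.30 to 1.38). In CPM the fatty acid sum was 789 in WT and 958 in T403A, a 1.21-fold difference, or 1.12-fold (1.09 to 1.14) without Fasn. The sterol sum was 1080 and 980 CPM (ratio 0.907), and without Lss and Dhcr7 the ratio was 0.852 (0.834 to 0.871). The direction of the sterol sum turns with library size scaling, since its share of all counts was 0.101% in WT and 0.105% in T403A.

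Per length, the highest members in WT were Srebf2, Insig1, Elovl1 and Acly at 56.2, 54.3, 52.4 and 47.6 RPKM, and in T403A Acly led at 53.3 RPKM, with Srebf2 at 41.2. The lowest were Scd1, Elovl6, Fdps and Acss2 in WT, between 0.414 and 1.32 RPKM. How the deposited length was derived is not given in the sources used here, so values per length of different genes carry that limit. Where it counts long alternative exons, the value per length of a gene is lower.

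Of 34 other genes of the pathway 33 were measured, and 4 were called higher and 4 lower, near the 13.5% and 10.8% of all measured genes. Their median log2 ratio was -0.14. Lpin1, a phosphatidate phosphatase, was at 11.5 CPM in WT against 26.9 CPM in T403A, 2.34-fold higher (1.97 to 2.80). Lbr, a sterol reductase that is also the lamin B receptor, was at 30.2 and 58.7 CPM, 1.94-fold higher (1.74 to 2.17). Mid1ip1, which activates the acetyl-CoA carboxylases, was at 20.5 and 37.7 CPM, 1.84-fold higher (1.61 to 2.10). Elovl7 rested on 8 and 33 counts and was 3.10-fold higher (1.41 to 7.78).

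Called lower were Acsl1, Acsl5, Hsd17b12 and Pdss1. Acsl3 and Acsl4, of the same family as Acsl1, were not called, and the elongase Elovl7 was called higher. Acsl1, an acyl-CoA synthetase, had 5419 counts in WT and 1565 in T403A, 361 and 78.5 CPM, and was 4.60-fold lower (4.35 to 4.87). Acsl5, of the same family, was at 142 and 88.3 CPM (ratio 0.623, 0.584 to 0.664). Hsd17b12, the ketoacyl reductase of the elongation cycle, was at 179 and 94.4 CPM (ratio 0.527, 0.497 to 0.559). Pdss1, which makes the side chain of ubiquinone, had 77 and 67 counts (ratio 0.655, 0.465 to 0.920). The 6 genes of SREBP cleavage and of INSIG or reductase degradation were all within 1.5-fold, among them the site proteases Mbtps1 (104 and 110 CPM) and Mbtps2 (58.7 CPM in T403A).

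**Figure D5:**
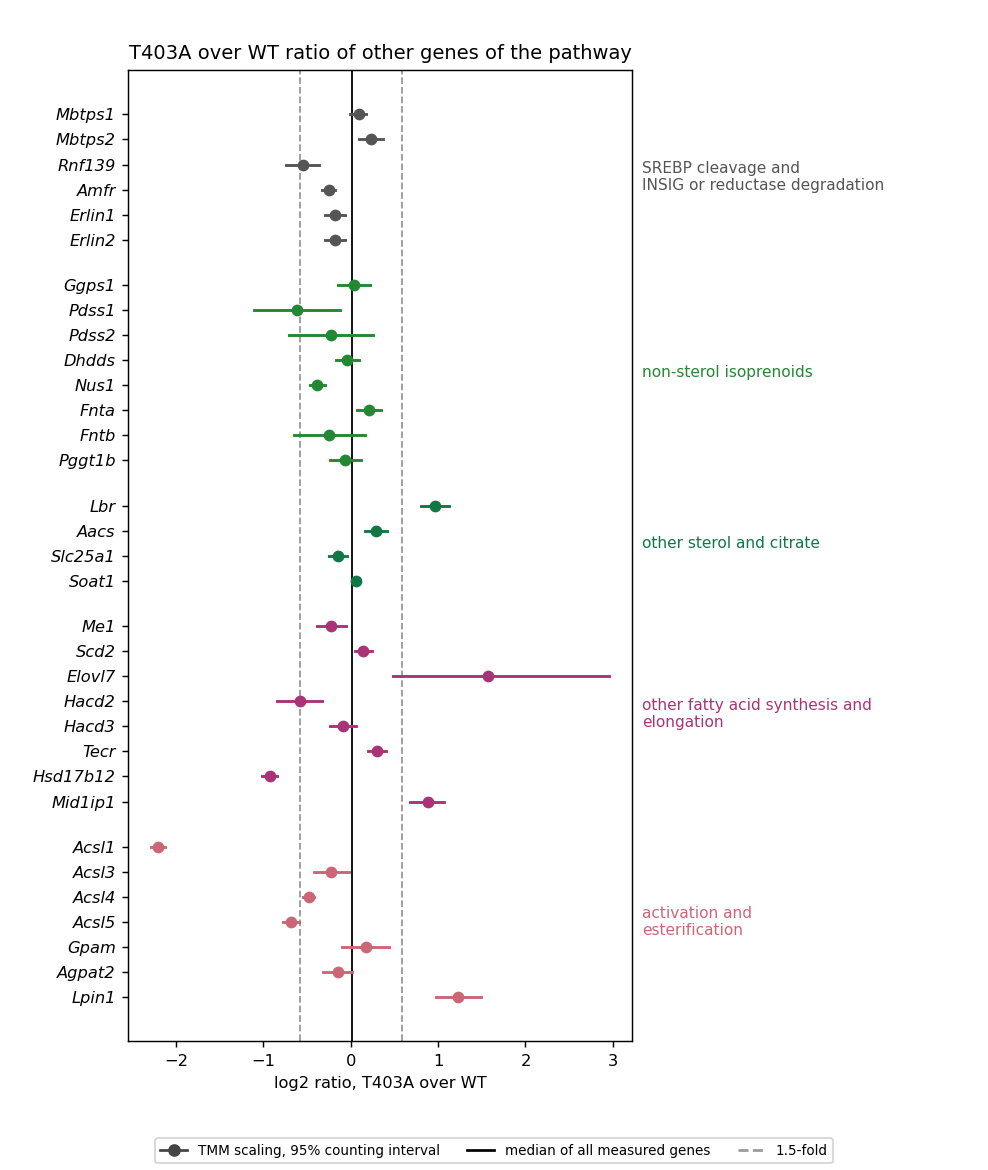
Log2 ratio of T403A over WT (horizontal axis) for the 33 measured genes of the pathway outside the 34 members, grouped by role; bars are 95% counting intervals, dashed lines 1.5-fold and the solid line the median of all measured genes. Acsl1 lies farthest left at -2.20, and Elovl7, on few counts, farthest right at 1.57.

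Genes of oxysterols and of liver X receptors, nuclear receptors that bind oxysterols and raise Srebf1 transcription, went both ways while Srebf1 itself was at 118 and 112 CPM. Ch25h, the interferon-induced hydroxylase that makes an INSIG-binding oxysterol, had 4 counts in WT and 10 in T403A (ratio 1.88, 0.542 to 8.22), and Cyp7b1 had none, which allows up to 0.200 CPM in WT against 0.150 CPM in T403A. Cyp27a1, another sterol hydroxylase, was at 38.5 and 75.7 CPM, 1.96-fold higher (1.78 to 2.17). The receptor gene Nr1h3 was at 67.5 CPM in WT against 14.8 CPM in T403A, and Nr1h2 at 134 and 127 CPM. The efflux transporters Abca1 and Abcg1 differed in opposite directions, with 420 and 198 CPM for Abca1 and 65.1 and 110 CPM for Abcg1, while Mylip was at 63.7 and 61.7 CPM. The part of these genes in the sterol and fatty acid differences was not tested.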

How the data were processed

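RNA was sequenced from 1 library per group (WT, T403A). The authors deposited whole-number read counts per Ensembl gene, with a gene length in bases, per the file headers. The genome build was GRCm38, and HISAT2, HTSeq 0.9.1, cutadapt 1.15 and DESeq 1.30.0 were used, per the submitters' processing notes. Which step each tool ran, the gene annotation and the strand setting were not given in the sources used here, so reads of genes that overlap on opposite strands cannot be told apart. Columns were matched to samples by title, and 21969 of 22060 identifiers received a symbol.

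Counts were scaled with TMM (edgeR 4.0.16, R 4.3.3) and expressed as CPM, or RPKM with the deposited length. Ratios carry exact 95% Clopper-Pearson intervals (scipy 1.17.1), and log2 ratios a prior count of 0.5 per library. A count of 0 allows up to 3 counts. Intervals and floors cover counting error only. Ratios of ratios, the contrast of summed fatty acid and sterol counts among them, use the normal approximation on the log scale. The T403A over WT ratio of a single summed branch uses the exact interval. Genes with at least 20 summed counts were treated as measured, and all 34 members are named. Of the other pathway genes those called are named, with the site proteases, Scd2, Acsl3 and Acsl4 added after their values were seen. The members and lists were chosen with earlier results of these data known. The scoring was tested on simulated counts with counting error only and planted changes well beyond 1.5-fold. That test does not cover the spread between cultures, the TMM scaling or calls near the 1.5-fold line. Positions, exon overlaps and shared stretches of 50 bases come from GENCODE annotation of the same build. Srebf1 (Rai1), Idi1 (Gm48574) and Elovl6 (Gm35986) also overlap exons of genes on the opposite strand. Alternatives changed the scaling, the filter, the fold, the prior count and the branch assignment.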

Additional observations from a re-analysis of the deposited data

How the results depend on the processing

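With 1 library per group no replicate could be left out, and no paired analysis was possible because each group holds a single library. Library size scaling moved the log2 ratio of every gene, and so their median, up by 0.19. Members called were then 9 higher and 1 lower, against 20.4% and 7.95% of all measured genes. All 5 members called higher were kept, with Scap, Acss2, Elovl6 and Fads2 added, and Sqle was no longer called. The sterol median became 0.19, with the same distance to the median of all genes, and other pathway genes called lower numbered 2. With upper quartile scaling 7 members were called higher and 1 lower (15.6% and 9.61% of all measured genes). With DESeq2 size factors (DESeq2 1.42.0) the counts of members stayed at 5 and 2. At 2-fold 0 members were called higher and 1 lower (Hsd17b7), against 7.21% and 6.08% of all measured genes, and of the other pathway genes 2 were called higher and 1 lower. No called member changed sign under any alternative run. The difference of branch medians lay between -0.67 and -0.37, and the fatty acid median was 0.67 when only Acaca, Fasn, Elovl6 and Scd1 stood for the branch. Another alternative was chosen after seeing the data. It left out the 5 members with over 20% of their 50-base stretches in other genes (Acat2, Idi1, Fdps, Fdft1 and Acaca). Of the remaining 29 members 4 were called higher and 2 lower, against 13.5% and 10.8% of all measured genes. The difference of branch medians was then -0.45. Depth limits Scd1, Fdps, Elovl6 and Tm7sf2 most, and the spread between cultures is unknown for every gene.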
